A study of Mus musculus with 25 samples.

Results

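A set of 45 genes of the cell cycle was followed through the growth of the mouse sinoatrial node (SAN), the small region of the right heart whose cells pace the heartbeat, and of the right atrium (RA), the working muscle beside it. The genes were taken by name from 20870 genes listed in each library, and all 45 were listed. They fall into 3 D cyclins, 13 genes of S phase and its entry, and 29 genes of mitosis and its entry. The rule used no measured value. RNA had been taken by laser capture from frozen sections on which SAN or RA was outlined by eye, and sections were stained for Hcn4 afterwards to check what had been cut out. The stages were E14.5 (embryonic day 14.5), P4 and P14 (days 4 and 14 after birth), with 3 libraries for each tissue and stage and 18 in all. These 18 came from Hcn4-GFP mice, which carry a fluorescent reporter at the pacemaker channel gene. A further 7 libraries held SAN of E12.5 embryos of genotype Hcn4-GFP;Isl1 fl/fl, that is, with floxed alleles of the transcription factor gene Isl1, after tamoxifen at E10.5. Of these, 4 had no Cre recombinase (CreNeg) and 3 also carried CAG-Cre/Esr1 (CrePos), a tamoxifen-inducible Cre under a promoter that is active in most cell types and so not restricted to the SAN. The title of CrePos replicate 2 calls it an outlier. All mice were on a mixed strain background, and the labels do not say which libraries share an animal. The p-values therefore measure the spread between libraries, which may be technical, and are too small where libraries share an animal.

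A dividing cell passes from growth signals to DNA copying to chromosome separation, and each step has its own genes. D cyclins with their kinases respond to growth signals and lift the block that pocket proteins such as the retinoblastoma protein hold on E2F factors. E2F factors then switch on genes for nucleotide supply and for the MCM helicase that opens DNA. Later, genes of the spindle, the kinetochore and cytokinesis are switched on from promoters that often carry a cell cycle homology region (CHR) and CCAAT boxes, while the DREAM complex shuts both classes in resting cells. Heart muscle cells divide in the fetus and largely leave the cycle after birth, whereas fibroblasts, vessel cells and blood cells of the same tissue can go on dividing.

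These promoter elements were looked for first, as letters only, in RefSeq windows of assembly GRCm38.p6 from 250 bases before to 50 bases after a gene's start. A window was found for 36 of the 45 members. Both strands were searched, for TTTGAA (CHR), for CCAAT, and for TTTCCCGC or TTTGGCGC (E2F). None of these motifs contains another. A member was counted if any of its windows held the motif, whereas the share over all windows was counted per window. TTTGAA was present in 17 of 24 mitosis members (70.8%) and in 1 of 11 S phase members (9.09%), against 17.9% of all 32851 windows. The E2F letters were present in 4 of 11 S phase members (36.4%) and in 0 of 24 mitosis members, against 1.57% of all windows. CCAAT was present in 18 of 24 mitosis members and 8 of 11 S phase members, against 37.4% of all windows. A match describes the letters and is not a shown binding site. Stretches of 4 mitosis promoters are printed to show the CHR and CCAAT letters. They belong to the 4 members with TTTGAA that had the smallest p for the change in SAN from E14.5 to P14. Birc5 and Nusap1, described below, held neither TTTGAA nor CCAAT in their windows. Capitals mark TTTGAA or its reverse TTCAAA and CCAAT or its reverse ATTGG.
Mki67, chr7:135716418-135716537, minus strand: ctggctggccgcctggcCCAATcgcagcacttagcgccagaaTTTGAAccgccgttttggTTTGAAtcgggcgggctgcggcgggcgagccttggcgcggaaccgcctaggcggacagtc
Top2a, chr11:99024160-99024279, minus strand: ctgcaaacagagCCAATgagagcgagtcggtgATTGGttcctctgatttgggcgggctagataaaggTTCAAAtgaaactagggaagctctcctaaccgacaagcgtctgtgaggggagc
Cenpf, chr1:189688057-189688176, minus strand: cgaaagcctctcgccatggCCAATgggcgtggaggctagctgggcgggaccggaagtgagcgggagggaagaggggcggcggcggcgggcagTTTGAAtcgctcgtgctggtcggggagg
Ccnb2, chr9:70421525-70421644, minus strand: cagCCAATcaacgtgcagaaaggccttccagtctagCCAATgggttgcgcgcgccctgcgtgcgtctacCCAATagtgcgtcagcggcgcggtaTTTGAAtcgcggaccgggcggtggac
The 4 S phase promoters that hold the E2F letters all belong to MCM genes. Capitals mark the E2F letters on either strand.
Mcm3, chr1:20820283-20820402, minus strand: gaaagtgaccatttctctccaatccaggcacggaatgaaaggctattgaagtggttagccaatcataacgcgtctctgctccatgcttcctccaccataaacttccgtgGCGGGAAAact
Mcm5, chr8:75109300-75109419, plus strand: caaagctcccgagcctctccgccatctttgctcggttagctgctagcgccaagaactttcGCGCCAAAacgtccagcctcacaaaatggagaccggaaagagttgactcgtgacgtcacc
Mcm6, chr1:128359693-128359812, minus strand: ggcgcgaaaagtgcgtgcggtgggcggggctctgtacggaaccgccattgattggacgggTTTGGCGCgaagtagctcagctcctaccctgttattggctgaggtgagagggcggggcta
Mcm7, chr5:138171989-138172108, minus strand: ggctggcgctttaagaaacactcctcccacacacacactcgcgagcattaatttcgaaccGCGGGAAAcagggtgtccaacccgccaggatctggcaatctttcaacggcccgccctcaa

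Levels are given as CPM, here the deposited scaled value divided by a single constant (24.3) for all libraries. This keeps the deposited scaling and leaves library totals unequal, so a CPM here is not an exact share of its own library's reads. Differences are given as log2(CPM + 1) with their standard error (SE). Between 5101711 and 17997497 reads were recovered in the 18 libraries, and between 45298052 and 88020474 in the 7 of the Isl1 set. The SAN markers Hcn4, Isl1, Tbx3, Shox2, Vsnl1 and Smoc2 summed to 2672 to 6721 CPM in the 9 SAN libraries and to 64.2 to 127 CPM in the 9 RA libraries, so the marker levels of all 18 were as their tissue labels say. Ventricular markers (Myl2, Myl3 and Irx4) summed to 1262 CPM in replicate 1 of SAN at E14.5, against at most 181 CPM in the other 17 libraries. Because the RNA came from bulk tissue, fewer dividing cells and less RNA of these genes per dividing cell cannot be told apart. The libraries carry no strand, so reads of an overlapping antisense gene would be counted with the gene.

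The comparison of E14.5 with P14 asks how the cycle genes changed as the tissues matured. All 29 mitosis genes fell in both tissues, and nearly all S phase genes fell with them, while the D cyclins split. In SAN 42 of 45 members fell (adjusted p under 0.05 by limma, Benjamini-Hochberg over all genes tested), against 14.5% of the 17568 genes tested, and 0 rose, against 9.74%. In RA 43 of 45 fell, against 16.7%. Mitosis members had a median log2 difference of −3.32 in SAN and −3.004 in RA, S phase members one of −1.83 and −2.16, and D cyclins one of −0.11 and −1.03. The median over all genes tested was −0.18 in SAN and −0.37 in RA. Replicate groups did not overlap for 41 members in SAN (24.5% of all genes) and for all 45 in RA (33.1%). The 3 members not called in SAN were Ccnd1, Ccnd2 and Ccne1, and the 2 not called in RA were Ccnd1 and E2f1.

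**Figure D1:**
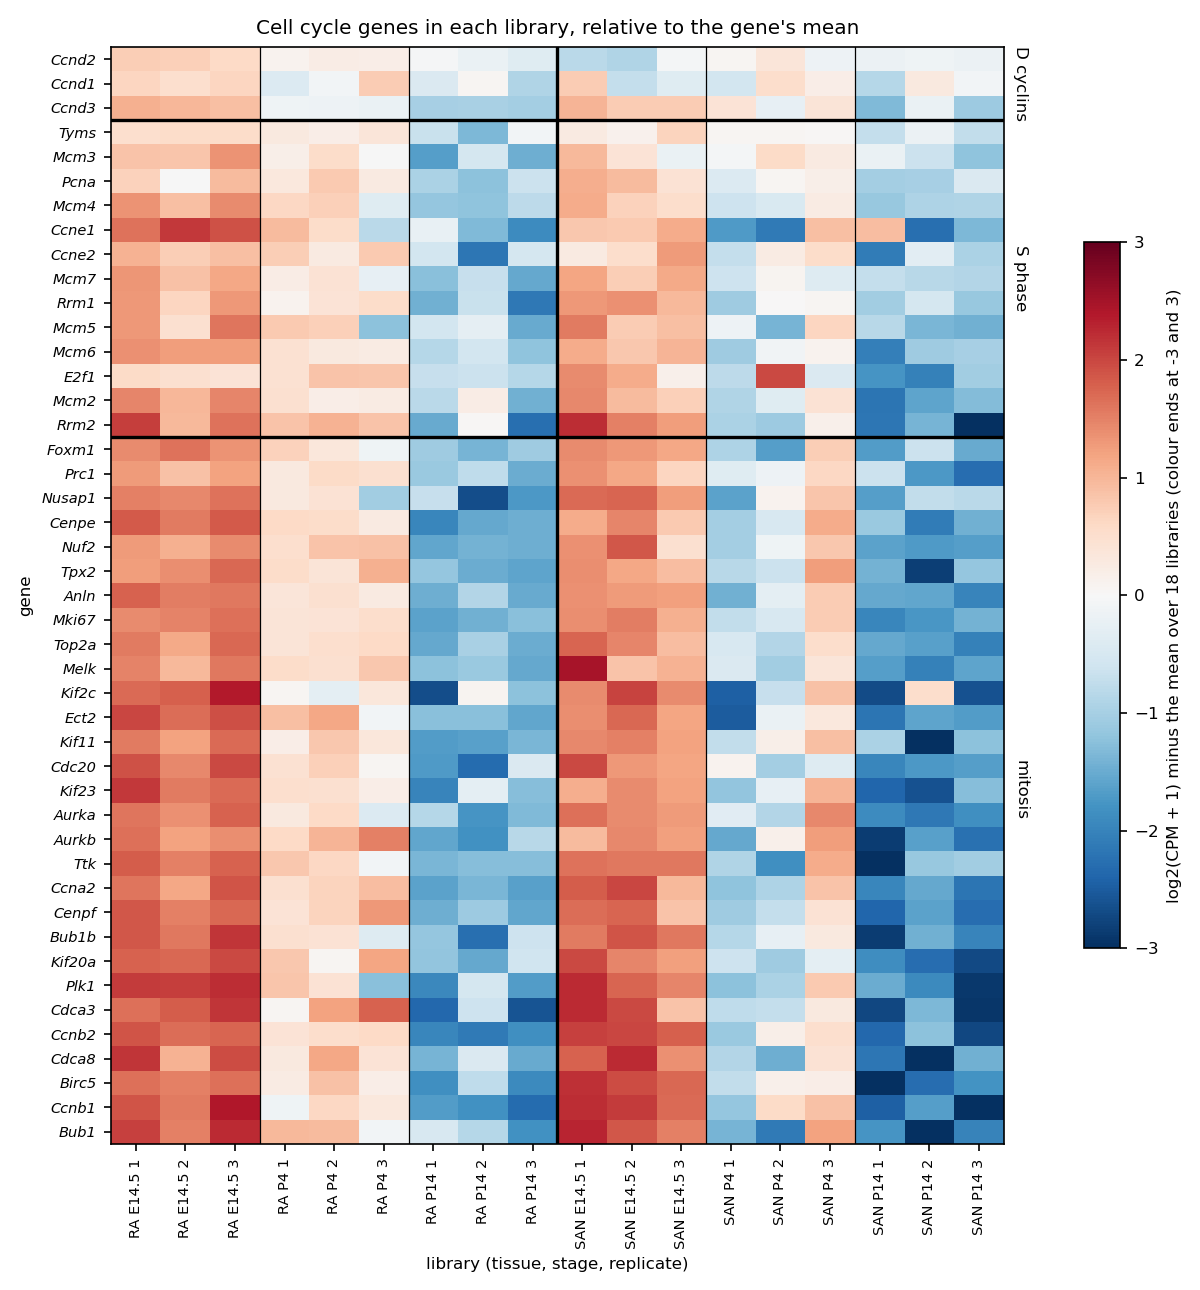
Level of each member (rows, grouped as D cyclins, S phase and mitosis) in each of the 18 libraries (columns, RA left and SAN right, by stage), as log2(CPM + 1) minus the gene's mean over the libraries; red is higher and blue lower, and the colour scale ends at -3 and 3. Most rows pass from red at E14.5 to blue at P14 in both tissues, and SAN P4 replicate 3 is redder than the other SAN libraries of its stage in most rows.

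Summed over the 29 mitosis genes, the level in SAN was 4044, 4068 and 2889 CPM at E14.5, 728, 956 and 2250 CPM at P4 and 378, 394 and 392 CPM at P14. In RA it was 4156, 3626 and 4507 CPM at E14.5, 1813, 1984 and 2003 CPM at P4 and 453, 550 and 491 CPM at P14. No P14 library of either tissue reached any library of an earlier stage. Within SAN P4 the libraries spread widely, with replicate 3 at 2250 CPM, above all 3 RA libraries of that age. Summed S phase genes stood at 806 ± 128 CPM (SD, n = 3) in SAN at E14.5, 384 ± 95.4 at P4 and 206 ± 18.2 at P14. The same sum in RA was 865 ± 150, 552 ± 56.0 and 215 ± 27.6 CPM. At P14 the sums of both groups lay below those of every library at P4 in either tissue.

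**Figure D2:**
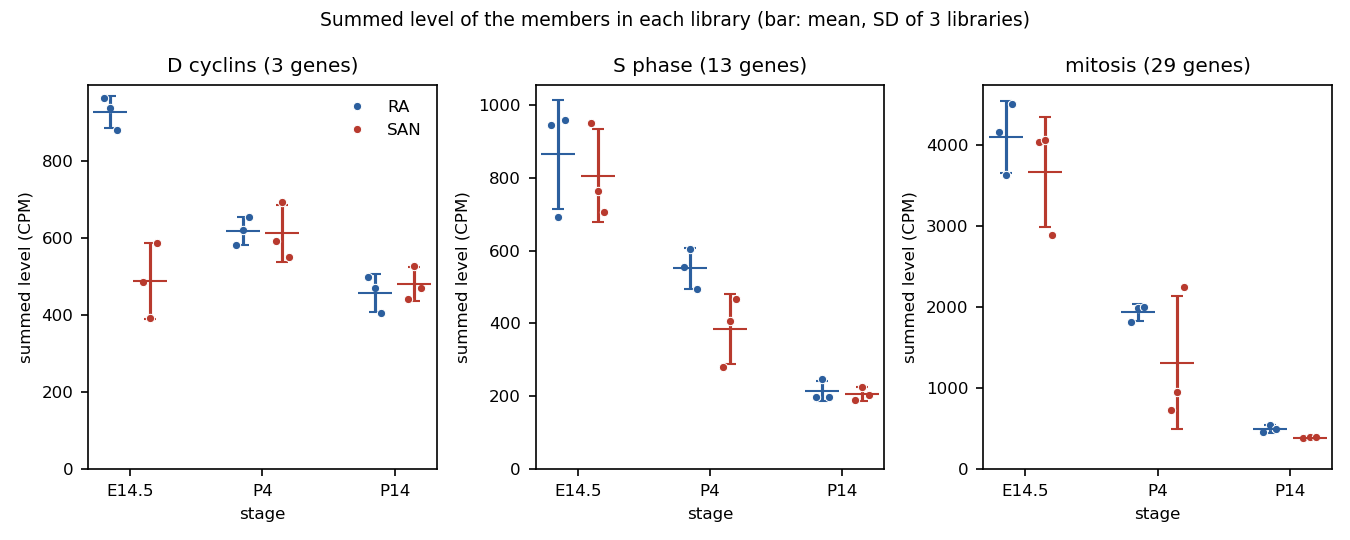
Summed level in CPM (y axis, from 0) of the D cyclins, S phase genes and mitosis genes by stage (x axis) in RA (blue) and SAN (red); each point is a library, and bars give the mean and SD of 3 libraries. The mitosis sum falls from 2889 to 4507 CPM at E14.5 to 378 to 550 CPM at P14, while the D cyclin sum of SAN is similar at E14.5 and P14.

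Among mitosis genes, the 4 with the smallest p in SAN and the 2 with the largest are given in full as a description. Mki67 encodes a protein that coats mitotic chromosomes and is a common marker of proliferation. It stood at 1053, 1150 and 832 CPM in SAN at E14.5, at 239, 285 and 678 CPM at P4 and at 102, 118 and 148 CPM at P14. In RA it stood at 1063, 1114 and 1265 CPM, at 525, 533 and 573 CPM and at 130, 147 and 168 CPM. The stages did not overlap in either tissue, and SAN P4 replicate 3 lay far above its fellow libraries. From E14.5 to P14 Mki67 fell by 3.04 ± 0.26 in SAN (SE, adjusted p = 3.1e-08) and by 2.95 ± 0.26 in RA (adjusted p = 4.9e-08) on the log2 scale. Top2a, the topoisomerase that untangles sister chromatids, stood at 529, 437 and 299 CPM in SAN at E14.5, at 113, 85.0 and 225 CPM at P4 and at 53.2, 49.7 and 37.5 CPM at P14. Top2a in RA stood at 468, 346 and 517 CPM, at 207, 222 and 239 CPM and at 53.2, 78.9 and 55.1 CPM. Its stages again did not overlap, and it fell by 3.12 ± 0.28 in SAN (adjusted p = 6.9e-08) and by 2.81 ± 0.28 in RA (adjusted p = 3.3e-07).

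Birc5 encodes survivin, a subunit of the chromosomal passenger complex that corrects faulty spindle attachments. Birc5 stood at 78.0, 66.0 and 55.7 CPM in SAN at E14.5, at 9.36, 18.1 and 18.7 CPM at P4 and at 1.06, 2.53 and 3.92 CPM at P14. In RA Birc5 stood at 53.0, 47.7 and 52.7 CPM, at 19.4, 30.8 and 18.7 CPM and at 3.80, 9.09 and 3.54 CPM. The gene fell by 4.34 ± 0.41 in SAN (adjusted p = 1.1e-07) and by 3.11 ± 0.41 in RA (adjusted p = 9.7e-06). The difference between these changes, −1.23, was not called (adjusted over all genes). Cenpf, a large kinetochore protein, stood at 310, 326 and 174 CPM in SAN at E14.5, at 45.3, 58.3 and 131 CPM at P4 and at 17.6, 30.8 and 19.0 CPM at P14. Cenpf in RA stood at 354, 279 and 322 CPM, at 128, 155 and 240 CPM and at 34.2, 44.9 and 31.9 CPM. It fell by 3.52 ± 0.33 in SAN (adjusted p = 1.2e-07) and by 3.08 ± 0.33 in RA (adjusted p = 8.7e-07), with no overlap between E14.5 and P14.

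At the other end of the mitosis group stood Nusap1 and Kif2c, whose libraries scattered more. Nusap1, a spindle microtubule binding protein, stood at 91.0, 92.9 and 66.2 CPM in SAN at E14.5, at 8.26, 29.3 and 48.8 CPM at P4 and at 7.94, 15.7 and 15.04 CPM at P14. In RA Nusap1 stood at 78.9, 75.2 and 85.6 CPM, at 33.2, 36.8 and 12.7 CPM and at 16.4, 3.48 and 7.53 CPM. Nusap1 fell by 2.64 ± 0.52 in SAN (adjusted p = 7.4e-04) and by 3.21 ± 0.52 in RA (adjusted p = 1.1e-04). Kif2c, a kinesin that takes microtubules apart at kinetochores, stood at 25.9, 40.3 and 26.0 CPM in SAN at E14.5, at 0.825, 5.21 and 17.4 CPM at P4 and at 0.573, 13.5 and 0.640 CPM at P14. Kif2c in RA stood at 31.8, 33.9 and 51.4 CPM, at 9.46, 7.23 and 11.6 CPM and at 0.584, 9.62 and 3.25 CPM. SAN P14 replicate 2 and RA P14 replicate 2 were its high libraries at that age. The fall of 3.22 ± 0.80 in SAN (adjusted p = 0.0050) and of 3.24 ± 0.80 in RA (adjusted p = 0.0052) was no longer called with DESeq2 or edgeR on the recovered reads. The other 23 mitosis genes changed by between −4.49 (Bub1, a spindle checkpoint kinase) and −2.57 (Foxm1, a factor that drives mitotic genes) in SAN and between −3.88 (Ccnb1, cyclin B1) and −2.25 (Prc1, which bundles the midzone spindle) in RA.

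**Figure D3:**
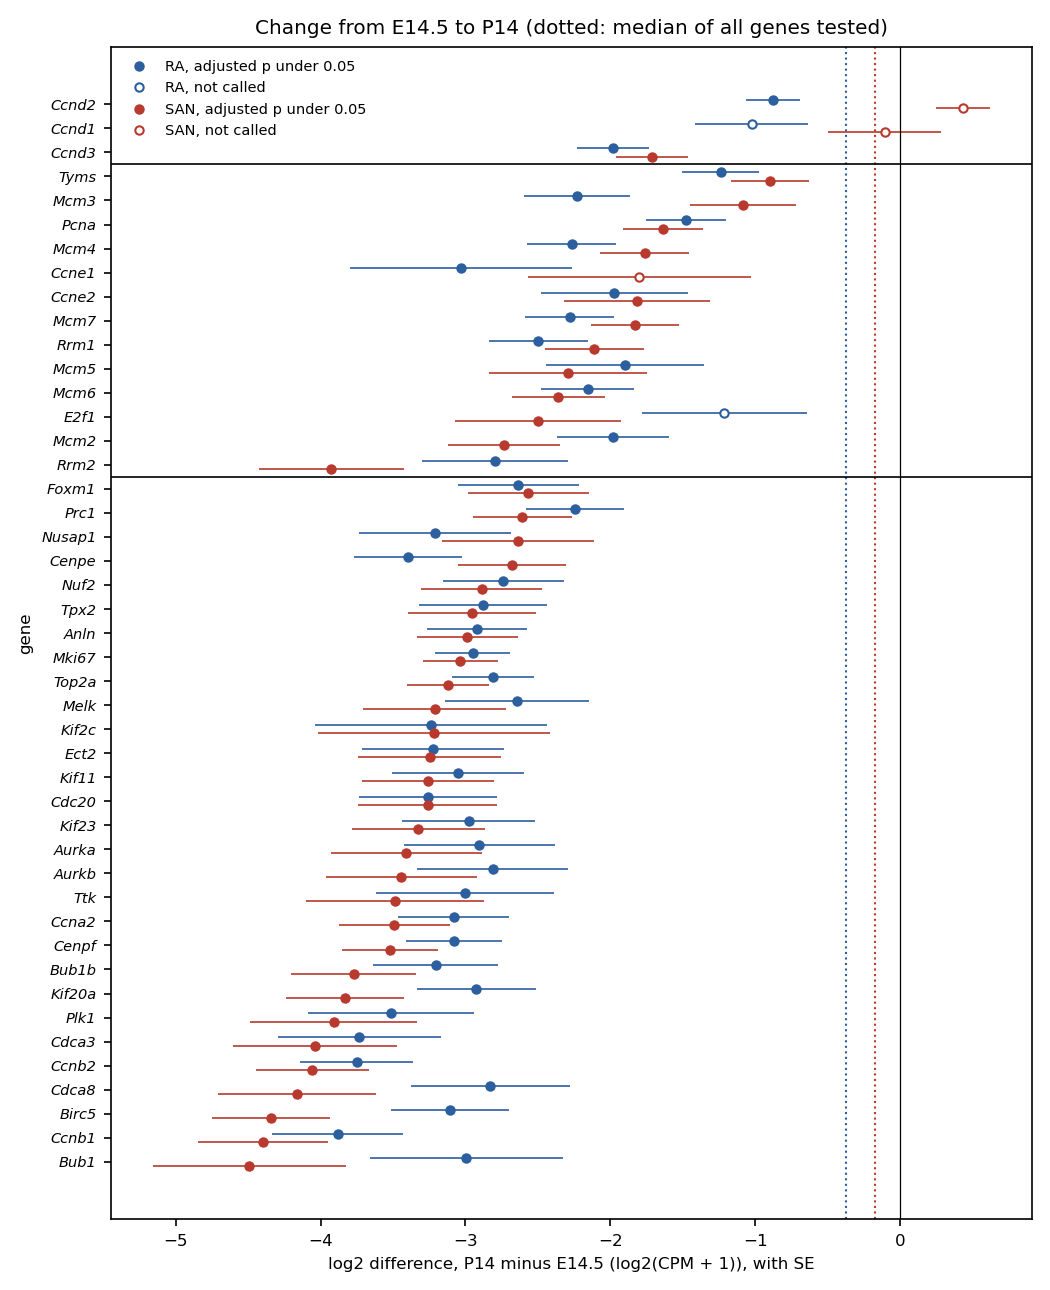
Log2 difference between P14 and E14.5 (x axis, log2(CPM + 1), with SE) of each member (y axis) in RA (blue) and SAN (red); filled points passed an adjusted p of 0.05 and open points did not, and dotted lines mark the median of all genes tested (−0.18 in SAN, −0.37 in RA). Every mitosis gene lies between −4.49 and −2.25, whereas Ccnd2 and Ccnd1 of SAN lie near 0.

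In S phase 12 of 13 members fell in each tissue, by less than the mitosis genes at the median. Rrm2 encodes the regulated subunit of ribonucleotide reductase, which makes the building blocks of DNA. It stood at 139, 84.2 and 71.3 CPM in SAN at E14.5, at 14.6, 13.03 and 32.4 CPM at P4 and at 5.65, 10.4 and 2.24 CPM at P14. Rrm2 in RA stood at 125, 58.2 and 92.3 CPM, at 53.4, 60.9 and 53.4 CPM and at 9.64, 29.9 and 5.32 CPM. In SAN every step was free of overlap, while in RA replicate 2 of E14.5 (58.2 CPM) fell within the P4 libraries. Rrm2 fell by 3.92 ± 0.50 in SAN (adjusted p = 7.0e-06) and by 2.80 ± 0.50 in RA (adjusted p = 3.1e-04). Rrm1, the partner subunit, stood at 128, 135 and 102 CPM in SAN at E14.5, at 24.2, 52.4 and 54.4 CPM at P4 and at 24.6, 35.5 and 23.1 CPM at P14. Rrm1 in RA stood at 129, 81.2 and 129 CPM, at 56.3, 69.4 and 76.6 CPM and at 18.4, 32.3 and 10.9 CPM. Its change in SAN, −2.11 ± 0.34 (adjusted p = 9.4e-05), was mostly made by P4, where replicate 1 was already at the P14 level. In RA it was −2.50 ± 0.34 (adjusted p = 1.7e-05).

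The MCM genes encode subunits of the replicative helicase, and all 6 fell in both tissues. Mcm6 stood at 76.4, 62.0 and 72.4 CPM in SAN at E14.5, at 16.1, 32.3 and 37.6 CPM at P4 and at 7.61, 16.1 and 16.9 CPM at P14. Mcm6 in RA stood at 91.7, 84.6 and 85.1 CPM, at 48.1, 42.8 and 41.5 CPM and at 19.0, 23.7 and 14.6 CPM. It fell by 2.36 ± 0.32 in SAN (adjusted p = 1.3e-05) and by 2.16 ± 0.32 in RA (adjusted p = 4.0e-05). Mcm2 stood at 89.4, 62.6 and 53.1 CPM in SAN at E14.5, at 16.7, 24.7 and 43.9 CPM at P4 and at 6.22, 9.996 and 12.3 CPM at P14. In RA Mcm2 stood at 89.8, 64.5 and 90.8 CPM, at 44.8, 37.1 and 38.1 CPM and at 17.8, 37.5 and 11.2 CPM. Mcm2 fell by 2.73 ± 0.39 in SAN (adjusted p = 2.1e-05) and by 1.98 ± 0.39 in RA (adjusted p = 6.9e-04), and in RA P14 replicate 2 lay at the P4 level. Mcm3 changed least among the MCM genes in SAN. It stood at 54.9, 37.2 and 23.9 CPM at E14.5, at 26.4, 41.8 and 33.6 CPM at P4 and at 23.9, 17.2 and 11.3 CPM at P14. The E14.5 and P14 libraries of SAN met at 23.9 CPM, and its fall of 1.09 ± 0.36 (adjusted p = 0.033) was lost with DESeq2 and edgeR, under equal upper quartiles, and without SAN E14.5 replicate 1 or 2 or SAN P14 replicate 2 or 3. In RA Mcm3 stood at 50.7, 49.9 and 71.3 CPM, at 31.3, 41.1 and 27.3 CPM and at 8.03, 18.8 and 9.30 CPM, and fell by 2.23 ± 0.36 without overlap (adjusted p = 1.1e-04). The other MCM genes, Mcm4, Mcm5 and Mcm7, had differences of −1.76, −2.29 and −1.83 in SAN and −2.27, −1.90 and −2.28 in RA, and all were called. The RA call of Mcm5 was lost with edgeR and without RA E14.5 replicate 1 or 3 or RA P14 replicate 3 (adjusted p from 0.053 to 0.077).

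Of the entry genes, Ccne1 (cyclin E1) had low levels that did not settle at P14 in SAN. It stood at 7.37, 7.27 and 9.33 CPM at E14.5, at 0.459, 0.1003 and 7.92 CPM at P4 and at 8.02, 0 and 0.880 CPM at P14. SAN P4 replicate 3 and SAN P14 replicate 1 reached the E14.5 level, while replicate 2 at P14 had no read, which allows up to 0.400 CPM. Its difference of −1.80 ± 0.77 was not called (adjusted p = 0.093). In RA Ccne1 stood at 13.6, 19.7 and 16.9 CPM, at 8.14, 5.97 and 1.72 CPM and at 3.07, 0.891 and 0.295 CPM, and fell by 3.03 ± 0.77 (adjusted p = 0.0062, not called with edgeR). E2f1, the factor that switches on S phase genes, fell in SAN by 2.50 (adjusted p = 0.0026). In RA its difference of −1.21 was not called (adjusted p = 0.13), although the libraries of E14.5 and P14 did not overlap. E2f1 in RA stood at 11.6, 10.7 and 10.2 CPM at E14.5 and at 4.23, 4.37 and 3.69 CPM at P14. The estimate of spread is shared by all 18 libraries, and in SAN at P4 E2f1 stood at 3.85, 32.4 and 5.22 CPM. Pcna, the sliding clamp of DNA polymerase, fell by 1.64 in SAN and by 1.48 in RA. Tyms, which makes thymidylate, changed by −0.90 in SAN and −1.24 in RA, and its SAN call was lost with edgeR (adjusted p = 0.053) and without SAN E14.5 replicate 3 or SAN P14 replicate 1 or 3 (adjusted p from 0.060 to 0.084). Per kb of exon, Pcna was the highest S phase member at P14, at 27.4 CPM per kb in SAN and 25.1 in RA, against 2.78 and 6.82 CPM per kb for Rrm2.

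Of the D cyclins, which link growth signals to the cycle, Ccnd3 fell in SAN and Ccnd1 and Ccnd2 were not called there from E14.5 to P14. Ccnd3 stood at 155, 128 and 128 CPM in SAN at E14.5, at 100, 63.2 and 99.4 CPM at P4 and at 29.6, 66.1 and 35.1 CPM at P14. In RA Ccnd3 stood at 158, 153 and 143 CPM, at 69.4, 67.8 and 65.6 CPM and at 37.7, 38.0 and 36.9 CPM. Ccnd3 alone of the 3 fell in both tissues, by 1.71 ± 0.25 in SAN (adjusted p = 2.9e-05) and by 1.98 ± 0.25 in RA (adjusted p = 5.7e-06). Ccnd2 stood at 249, 234 and 422 CPM in SAN at E14.5, at 460, 562 and 396 CPM at P4 and at 385, 403 and 390 CPM at P14. Ccnd2 in RA stood at 730, 716 and 663 CPM, at 476, 510 and 507 CPM and at 426, 382 and 342 CPM. At E14.5 all RA libraries lay above all SAN libraries, and from P4 on the tissues overlapped. Ccnd2 was lower in SAN at E14.5 by 1.27 ± 0.19 (adjusted p = 1.4e-04), fell in RA from E14.5 to P14 by 0.88 ± 0.19 (adjusted p = 0.0016) and rose in SAN from E14.5 to P4 by 0.68 ± 0.19 (adjusted p = 0.027). The SAN rise to P4 was lost without SAN E14.5 replicate 1 or 2 or SAN P4 replicate 1 or 2 (adjusted p from 0.055 to 0.16), and the RA fall with DESeq2 or edgeR. The difference in SAN from E14.5 to P14, 0.43 ± 0.19, was not called (adjusted p = 0.10), but passed with DESeq2 (0.60), with edgeR (0.58), under equal upper quartiles (0.56) and without SAN E14.5 replicate 3 (0.70), the library at 422 CPM. That library was the lowest of its group for 32 of 45 members. It also held 3560 CPM of fibroblast markers, against 1541 and 1975 CPM in the other two, 219 CPM of epicardial markers, against 17.6 and 72.6 CPM, and 362 CPM of working atrial markers, against 151 and 74.7 CPM. Their part in the Ccnd2 values was not tested.

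The change of Ccnd2 differed between tissues, with SAN minus RA at 1.31 ± 0.27 from E14.5 to P14 (adjusted p = 0.0100) and at 1.18 ± 0.27 from E14.5 to P4 (adjusted p = 0.027). It was the only member called in these 2 contrasts, which called 1.64% and 0.609% of all genes in that direction. With edgeR neither was called (adjusted p = 0.073 and 0.057), and the contrast to P4 was also lost without any of 8 single libraries. Ccnd1 stood at 80.4, 28.5 and 36.3 CPM in SAN at E14.5, at 32.0, 68.0 and 54.0 CPM at P4 and at 25.5, 58.2 and 44.7 CPM at P14. SAN E14.5 replicate 1, at 80.4 CPM, also held 1262 CPM of ventricular markers, against 50.3 and 56.5 CPM in its fellow libraries. The part of these markers in the Ccnd1 values was not tested. In RA Ccnd1 stood at 74.3, 67.2 and 74.2 CPM, at 35.4, 44.1 and 80.5 CPM and at 34.5, 49.0 and 24.8 CPM. Libraries of Ccnd1 overlapped across all stages of SAN, and neither its SAN difference of −0.11 ± 0.39 (adjusted p = 0.88) nor its RA difference of −1.03 ± 0.39 (adjusted p = 0.062) was called. The median of the 3 D cyclins in SAN changed sign with the scaling, from −0.11 to 0.02 under equal upper quartiles. Per kb of exon, Ccnd2 was the highest of all 45 members at P14 in both tissues, at 58.5 CPM per kb in SAN and 57.1 in RA, ahead of Pcna.

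**Figure D4:**
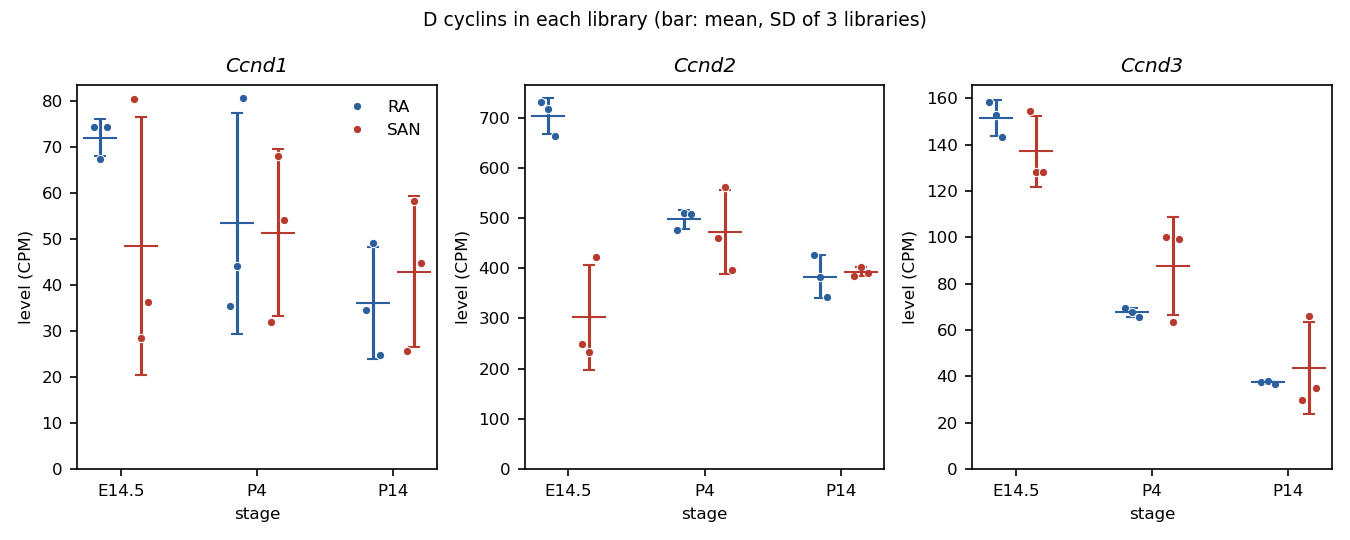
Level of Ccnd1, Ccnd2 and Ccnd3 in CPM (y axes, from 0, with different ranges) by stage (x axis) in RA (blue) and SAN (red); each point is a library, and bars give the mean and SD of 3 libraries. Ccnd2 at E14.5 separates RA (663 to 730 CPM) from SAN (234 to 422 CPM), and the tissues meet at P4 and P14.

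The step to P4 and the step after it were compared to see when the fall was made. In SAN 28 members fell and Ccnd2 rose between E14.5 and P4, against 4.39% of all genes called lower and 3.85% called higher. Groups did not overlap for 34 members (15.2% of all genes). In RA 8 members fell over the same step, against 3.56%, and groups did not overlap for 36 (15.7%). The 8 were Plk1 (−2.13), Ccnb1 (−1.68), Bub1b (−1.68), Anln (−1.26), Cenpe (−1.26), Ccnd3 (−1.15), Mki67 (−1.07) and Top2a (−0.97). From P4 to P14, 21 members fell in SAN (2.91%) and 32 in RA (5.42%). Mitosis members had a median difference of −1.90 and then −1.62 in SAN, and of −1.15 and then −1.88 in RA. S phase members had medians of −1.31 and −0.92 in SAN and of −0.77 and −1.38 in RA. Among the 42 members with a log2 difference below −1 in both tissues, called or not, a median of 53.6% of it was made by P4 in SAN and of 37.9% in RA, and the share was larger in SAN for 35. These shares are a description. The difference between tissues in the step from P4 to P14 was called by limma for 0 of 45 members (0.171% of all genes; 1 member at an unadjusted p under 0.05, and 0 with DESeq2 or edgeR), and in the step to P4 for Ccnd2 alone.

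Counts for single steps rested on few libraries. SAN P4 replicate 3 was the highest of its group for 37 of 45 members. Without it 38 members fell in SAN from E14.5 to P4 and 10 from P4 to P14. It also held 3089 CPM of smooth muscle and pericyte markers (Myh11, Rgs5, Cspg4, Pdgfrb and Acta2), against 645 and 825 CPM in the other two, and their part in the result was not tested. Without SAN E14.5 replicate 1 the number called from E14.5 to P4 was 15, and without SAN P4 replicate 1 or 2 it was 16. Without SAN P14 replicate 1 the number from P4 to P14 was 11, and without SAN P14 replicate 3 it was 13. In RA the 8 calls to P4 became 1 without RA E14.5 replicate 3, 2 without RA E14.5 replicate 1 or RA P4 replicate 3, 4 without RA P4 replicate 1 and 5 without RA E14.5 replicate 2 or RA P4 replicate 2. They became 14 without SAN P4 replicate 1 or 3, which enter through the shared estimate of spread. The 32 calls in RA from P4 to P14 became 19 without RA P4 replicate 2 and 21 under equal upper quartiles. That scaling moved the split of all genes in this contrast from 236 higher and 952 lower to 425 and 299, and from 1052 and 2936 to 1555 and 1682 in RA from E14.5 to P14. The median of all genes rose from −0.24 to 0.00 and from −0.37 to −0.11, while the members' calls in RA from E14.5 to P14 stayed at 43.

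SAN and RA were then compared at each stage. At E14.5 the differences had medians of −0.17 for mitosis and −0.18 for S phase members, and Ccnd2, at −1.27, was the only member called (3.09% of all genes called lower). At P4 43 of 45 differences were below 0, against 55.0% of all genes, with medians of −0.78 for mitosis and −0.58 for S phase, but only Cenpf was called (2.99%). Cenpf at P4, at 45.3, 58.3 and 131 CPM in SAN and 128, 155 and 240 CPM in RA, was lower by 1.25 ± 0.33 (adjusted p = 0.024), with SAN replicate 3 just above the lowest RA library. The call was lost with edgeR (adjusted p = 0.072), and without RA P4 replicate 2 or 3 or SAN P4 replicate 1 or 2. Without RA P4 replicate 3 or SAN P4 replicate 1 or 2 no member was called. Without SAN P4 replicate 3 the number called was 13, all lower in SAN: Anln, Aurkb, Bub1, Ccna2, Cenpe, Cenpf, Ect2, Foxm1, Kif20a, Mki67, Rrm2, Top2a and Tpx2. Mki67 then differed by −1.06 (adjusted p = 8.2e-04) and Rrm2 by −1.94 (adjusted p = 0.027). The number was 3 without RA P14 replicate 2, and 2 without SAN P14 replicate 1 or with DESeq2. The marker levels of SAN P4 replicate 3 are given above, and their part in this comparison was not tested.

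At P14 limma called 0 of 45 members between the tissues, against 4.55% of all genes in either direction. At an unadjusted p under 0.05 there were 6 members, against 15.6% of all genes. edgeR called 0, and DESeq2 called 2, Kif20a (−1.66) and Mcm2 (−1.38). Mitosis members had a median of −0.46, while the S phase median of 0.06 turned to −0.11, and the D cyclin median of 0.12 to −0.05, under equal upper quartiles. That scaling moved all genes from 564 higher and 235 lower to 427 and 341.

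Over the mean of the 3 stages Cenpf (−0.75 ± 0.19), Ccnd2 (−0.44 ± 0.11) and Kif20a (−0.93 ± 0.24) were lower in SAN, with adjusted p-values of 0.011, 0.0086 and 0.011, against 5.36% of all genes. Kif20a, a kinesin of cytokinesis, stood at 50.8, 35.2 and 30.1 CPM in SAN at E14.5, at 7.61, 5.31 and 9.74 CPM at P4 and at 2.62, 1.73 and 1.04 CPM at P14. In RA Kif20a stood at 43.8, 42.6 and 50.9 CPM, at 22.2, 12.7 and 28.8 CPM and at 4.82, 3.56 and 7.68 CPM. The tissues overlapped for Kif20a at E14.5 and were apart at P4 and P14. The number called over the mean was 18 without SAN P4 replicate 3 and 5 without RA P14 replicate 3 or with DESeq2.

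Genes that act on or beside the members were taken from lists of the pathway. Their counts stand beside the 14.5% of all genes called lower and 9.74% called higher in SAN, and 16.7% and 5.99% in RA. Of 4 cyclin-dependent kinase genes 3 fell from E14.5 to P14 in each tissue. Cdk1, the kinase of mitotic entry, fell by 3.68 ± 0.46 in SAN and by 2.82 ± 0.46 in RA, Cdk2 by 1.73 and 1.52, and Cdk4, the partner of D cyclins, by 1.56 and 1.69. Among 14 further E2F and DREAM factors, 7 fell and 1 rose in SAN and 6 fell in RA. E2f7 and E2f8, repressors among the E2F factors, fell by 2.64 and 2.59 in SAN and by 2.11 and 3.78 in RA. Tfdp2, an E2F partner, rose in SAN by 0.64. Of 16 origin licensing and firing genes 6 fell in SAN and 8 in RA, with Dbf4, which activates the Cdc7 kinase at origins, at −3.57 and −2.26. Of 9 checkpoint kinase and phosphatase genes 2 fell in SAN, Cdc25c (−3.33) and Chek1 (−2.53), and 6 in RA, and of 16 further spindle checkpoint, APC/C and cohesin genes 10 fell in SAN and 13 in RA, including Espl1, the separase gene, at −2.15 and −3.67.

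Among inhibitors of the cycle 1 pocket protein gene rose, and no CDK inhibitor gene did. Of 6 CDK inhibitor genes tested none was called higher in either tissue, and Cdkn1a (0.32 in SAN, −0.08 in RA) and Cdkn1b (−0.08 and −0.01) were not called. Cdkn1c, an inhibitor prominent in embryonic tissues, fell in both tissues. It stood at 123, 78.8 and 175 CPM in SAN at E14.5, at 32.1, 19.6 and 33.7 CPM at P4 and at 16.1, 34.4 and 14.5 CPM at P14. In RA Cdkn1c stood at 960, 727 and 714 CPM, at 64.8, 83.1 and 49.1 CPM and at 18.7, 39.4 and 21.1 CPM. RA exceeded every SAN library at E14.5 and P4, and the tissues overlapped at P14. Cdkn1c fell by 2.51 ± 0.35 in SAN (adjusted p = 1.5e-05) and fell by 4.93 ± 0.35 in RA (adjusted p = 1.7e-09), and these changes differed by 2.42 ± 0.49 (adjusted p = 0.0097). The pocket protein gene Rb1 rose by 0.71 ± 0.24 in SAN (adjusted p = 0.031) and by 0.89 ± 0.24 in RA (adjusted p = 0.0086), while its relative Rbl1 fell by 2.45 and 1.64 and Rbl2 was not called.

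Markers of other cell types moved over the same stages, and their part in the members' fall was not tested. In SAN the 6 fibroblast markers summed to 1541 to 3560 CPM at E14.5, 5097 to 9556 at P4 and 13747 to 15443 at P14. Of these, Dcn (3.996), Col3a1 (2.95), Col1a1 (2.61) and Lum (2.40) were called higher in SAN from E14.5 to P14. Pdgfra (−0.02) and Tcf21 (0.91) were not called. The 6 macrophage markers in SAN summed to 39.9 to 76.5, 124 to 210 and 404 to 579 CPM. Smooth muscle and pericyte markers in SAN summed to 550 to 701 CPM at E14.5 and 2940.5 to 3530.1 CPM at P14, glial markers to 5.86 to 27.1 and 63.4 to 81.3 CPM, epicardial markers to 17.6 to 219 and 198 to 242 CPM, and autonomic neuron markers to 123 to 233 and 22.5 to 40.7 CPM. In RA smooth muscle and pericyte markers summed to 277 to 491 CPM at E14.5 and 769 to 1145 CPM at P14, and epicardial markers to 244 to 318 and 54.3 to 118 CPM. In RA fibroblast markers went from 1373 to 1815 CPM at E14.5 to 5708 to 7341 at P14. The 5 cardiomyocyte markers stayed between 69760 and 87992 CPM in SAN and stood at 61554 to 90868 CPM in RA at E14.5 and 115290 to 121479 at P14. The 5 erythroid markers, most of whose sum is the hemoglobin gene Hbb-b1, summed to 1032 to 3806 CPM in SAN and 1388 to 13143 CPM in RA at E14.5, and to 173 to 982 and 131 to 354 CPM at P14. RA E14.5 replicate 2, lowest of its group for 35 of 45 members, was also lowest for these markers. That library had the fewest reads of its group as well, 6608420 against 10083677 and 12357437. Without it the median of all genes in RA from E14.5 to P14 was −0.29, against −0.37 with it. The part of markers or depth in its member levels was not tested. Endothelial markers summed to 398 to 811 CPM over the SAN libraries and to 1374 to 1931 CPM over the RA libraries, with all 6 detected. In SAN they summed to 398 to 741 CPM at E14.5 and to 801 to 811 CPM at P14. Pecam1 (1.44) and Kdr (1.01) were called higher in SAN from E14.5 to P14, and Emcn, Tek, Cdh5 and Npr3 were not called. In RA the sums were 1556 to 1931 CPM at E14.5 and 1374 to 1650 CPM at P14, with Cdh5 (−0.82) alone called, lower. Over the mean of the stages Npr3 (−4.27), Emcn (−2.20), Tek (−1.25) and Pecam1 (−0.78) were called lower in SAN. Kdr (−0.15) and Cdh5 (−0.33) were not called. The lymphocyte genes Cd79a and Rag1 summed to at most 3.36 CPM in the 18 libraries.

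In the Isl1 set the targeted gene was checked first. Isl1 stood at 67.4, 88.5, 47.8 and 83.2 CPM in the 4 libraries labelled CreNeg, at 71.7 and 53.9 CPM in the libraries labelled CrePos 1 and 3, and at 2.85 CPM in the library labelled CrePos 2. The libraries labelled CrePos 1 and 3 lay within the CreNeg range, with a difference of −0.16 ± 0.28 (adjusted p = 0.73). The table gives a single value for the gene, and the sources used here do not say which part is deleted, so this level does not check the label. Tbx3 was lower in the same 2 libraries by 2.80 ± 0.44 (adjusted p = 0.0027) and Hcn4 by 1.25 ± 0.22 (adjusted p = 0.0051). In this design the presence of active Cre and the loss of Isl1 cannot be told apart. The library labelled CrePos 2 was left out of the fit, as its title marks it.

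Of 45 members 42 had a difference below 0 in the 2 fitted libraries labelled CrePos, as did 81.8% of all genes tested. Mitosis members had a median of −0.65 in the libraries labelled CrePos, S phase members −0.44 and D cyclins 0.20, against −0.42 for all 14595 genes tested. Limma called 1 of 45 members, Mki67, against 1.32% called lower over all genes. Mki67 stood at 338, 503, 366 and 282 CPM in CreNeg and at 204 and 162 CPM in the libraries labelled CrePos 1 and 3, with 272 CPM in replicate 2. The fitted groups did not overlap, and the difference was −0.997 ± 0.245 (adjusted p = 0.048). Its adjusted p ranged from 0.038 to 0.73 over the alternatives, and the call was lost with DESeq2, with edgeR, with no filter, with a pseudocount of 0.25 CPM, under equal upper quartiles (−0.54, adjusted p = 0.36), with replicate 2 included (−0.80, adjusted p = 0.097) and without CreNeg replicate 2 or 3 or either fitted CrePos library. Groups did not overlap for 18 members, all lower, against 27.8% of all genes, and for 1 higher, Ccnd2, against 2.91%. Top2a stood at 145, 218, 157 and 170 CPM in CreNeg and at 123 and 88.3 CPM in the libraries labelled CrePos 1 and 3, with 155 CPM in replicate 2, a difference of −0.71 ± 0.24 that was not called (adjusted p = 0.14).

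Summed mitosis genes stood at 1311, 1953, 1354 and 1248 CPM in CreNeg. They stood at 920 and 845 CPM in the libraries labelled CrePos 1 and 3 and at 1206 CPM in replicate 2. On the deposited scaling, which leaves library totals unequal, every CrePos library lay below every CreNeg library, replicate 2 by little. Whether this order holds under another scaling was not tested. With equal upper quartiles the median of all genes moved from −0.42 to −0.03, that of mitosis members to −0.24, that of S phase members to −0.02 and that of D cyclins to 0.64, and the split of all called genes from 99 higher and 193 lower to 163 and 71. No member was called on that scale. The 3 D cyclins had differences above 0, and none was called by limma. Ccnd2 stood at 93.7, 71.0, 128 and 111 CPM in CreNeg and at 147 and 162 CPM in the libraries labelled CrePos 1 and 3, with 179 CPM in replicate 2. Its difference of 0.64 ± 0.25 was not called by limma (adjusted p = 0.19) and was by DESeq2 (1.11, adjusted p = 0.0024). Ccnd1 stood at 23.0, 24.3, 37.0 and 24.8 CPM in CreNeg and at 33.4 and 28.6 CPM in CrePos 1 and 3, within the CreNeg range (43.5 CPM in replicate 2), and Ccnd3 differed by 0.16 (adjusted p = 0.70).

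**Figure D5:**
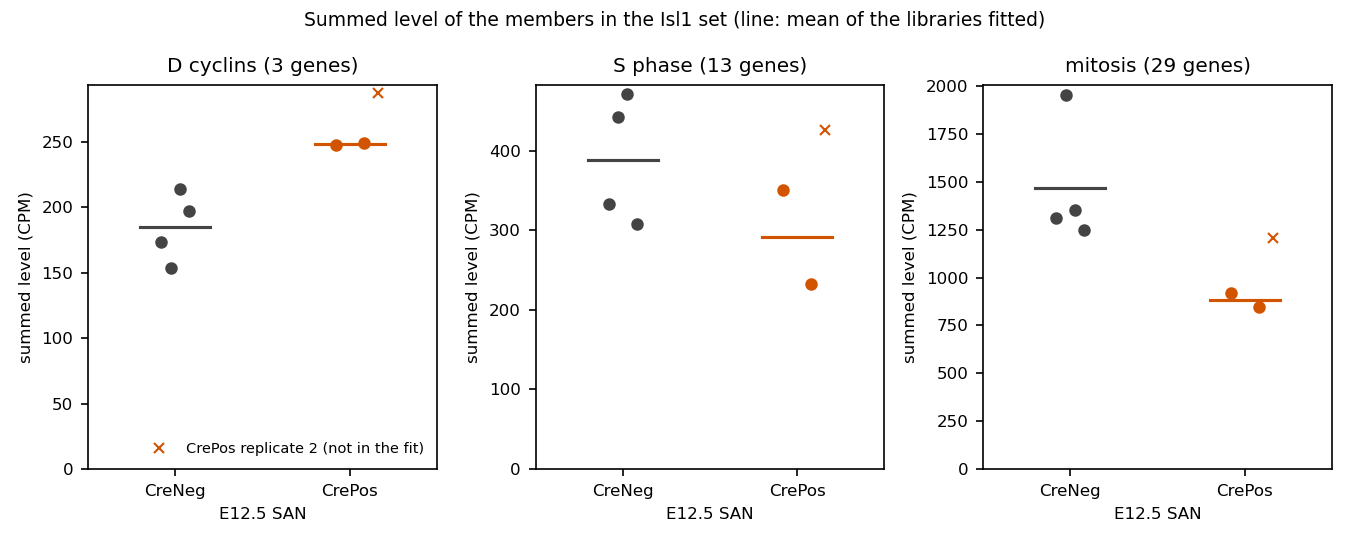
Summed level in CPM (y axes, from 0) of the D cyclins, S phase genes and mitosis genes in E12.5 SAN libraries labelled CreNeg (grey, 4) and CrePos (orange); circles are libraries in the fit, lines their means, and the cross is CrePos replicate 2, left out of the fit. The mitosis sum is 1248 to 1953 CPM in CreNeg and 845 to 1206 CPM in CrePos. The D cyclin sum is higher in all 3 CrePos libraries. Of the D cyclins, Ccnd2 alone did not overlap between the fitted groups, and none was called by limma.

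Of the pathway genes around the members, Cdkn1a alone was called by limma in the Isl1 set. Cdkn1a, a CDK inhibitor that acts after DNA damage and other stress, stood at 2.73, 1.51, 3.27 and 3.16 CPM in CreNeg, at 25.5 and 25.3 CPM in the libraries labelled CrePos 1 and 3 and at 95.3 CPM in replicate 2. All 3 CrePos libraries lay above all CreNeg libraries, and the difference was 2.88 ± 0.43 (adjusted p = 0.0019). Cdkn1b was at −1.15 ± 0.33 (adjusted p = 0.089) and Cdkn1c at 0.98 ± 0.35 (adjusted p = 0.15), neither called. The cyclin-dependent kinases, pocket proteins, E2F and DREAM factors, origin genes, checkpoint genes and spindle genes had 0 calls, with list medians from −0.64 to −0.33, near the −0.42 of all genes. In the same libraries working atrial markers summed to 21.2 to 80.0 CPM in CreNeg and 241 to 339 CPM in CrePos. Erythroid markers summed to 556 to 2423 CPM in CreNeg and 121 to 746 CPM in CrePos. Fibroblast markers summed to 1322 to 2832 CPM in CreNeg and to 984 and 629 CPM in CrePos 1 and 3. CrePos 2, outside the fit, held 2050 CPM of them. Pdgfra (−1.91), Col1a1 (−1.64) and Col3a1 (−1.12) were called lower by limma, while Dcn, Lum and Tcf21 were not called. Ventricular markers stood at 1822 CPM in the library labelled CrePos 2 and at most 126 CPM in the other 6. The part of these tissues in the members' values was not tested.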

How the data were processed

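RNA-seq was measured in 25 libraries of laser-captured mouse SAN and RA. The deposited values are a scaled signal for 20870 genes. Per the submitters' processing notes the authors aligned reads with TopHat2 2.0.6 to mm8 and used edgeR, and the table's name refers to TMM scaling. Per the labels' protocols the RNA was amplified by a single-primer isothermal method, so reads are not independent molecules and intervals or floors cover counting error only. A count of 0 allows up to 3 reads. Within each library at least 99.9943% of values were whole multiples of one step (tolerance 0.1 read), so whole reads were recovered from the deposited signal. Since the deposited values are scaled, the main test ran on a log scale, with the count tests as alternatives.

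Values were divided by 24.3 to give CPM. Tests used limma 3.58.1 (R 4.3.3) with a mean-variance trend on log2(CPM + 1), keeping genes that reached 1 CPM in 3 or more of the 18 libraries (17568 genes), or in 2 or more of the 6 fitted Isl1 libraries (14595 genes). All 45 members passed these filters. A call is an adjusted p under 0.05. Alternatives were DESeq2 1.42.0 and edgeR 4.0.16 on recovered reads, equal upper quartiles, no filter, a pseudocount of 0.25, a replicate block, CrePos replicate 2 included, and leaving out each library. The fit was also run on simulated counts that had the same dispersion for every gene. As real genes differ in spread, that run does not show how reliable the calls in these data are. Replicates of a group differed beyond counting noise (chi-squared per gene at least 8.85).

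Members, gene lists, markers and the rule for genes given in full were chosen with earlier results of these data known. The rule took the D cyclins, in S phase and in mitosis the 4 smallest and 2 largest p for SAN from E14.5 to P14, each member called in a tissue, interaction or CrePos contrast, and up to 3 genes per pathway list, with Cdk1, Cdkn1a, Cdkn1b, Cdkn1c and Rb1. Pathway genes outside it (Tfdp2 and Rbl2 among them) were named after their values were seen. Cdkn2a, Cdt1 and Gins2 were not matched in the table and are not analysed here. RefSeq promoter windows of GRCm38.p6 were used for letters only, since the reads were aligned to another build. Windows for Tpx2, Ccne2, Ccnd1, Ccnd2, Ccna2, Foxm1, Mcm4, Aurkb and Kif20a were not used here. Levels per kb use the exon length of a GENCODE annotation. No column was left unused.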

Additional observations from a re-analysis of the deposited data

Results flagged for a closer look

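In the 4 CreNeg libraries, 4 of 45 members had a library far from the others by Dixon's test, which chance gives in about 1 group of 20. They were Mcm4 at 55.8 CPM and Ccnd1 at 37.0 CPM in replicate 3, and E2f1 at 12.2 CPM and Ect2 at 32.6 CPM in replicate 2.

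The change of Ccnd2 differed between SAN and RA by 1.18 from E14.5 to P4 and by 1.31 from E14.5 to P14 (log2, limma).

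The library labelled CrePos 2, outside the fit, exceeded all 4 CreNeg libraries for 7 members and lay below all 4 for 12. The 7 were Mcm7 at 45.8 CPM, Rrm2 at 40.9 CPM, Tyms at 44.2 CPM, Ccne2 at 12.2 CPM, Ccnd1 at 43.5 CPM, Ccnd2 at 179.4 CPM and Ccnd3 at 64.4 CPM. It was higher than both other CrePos libraries for 32 members and lower than both for 3.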

How the results depend on the processing

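No value turned its direction past the threshold. Counts of called members with DESeq2 were 13 in RA from E14.5 to P4, 2 between SAN and RA at P4, 2 at P14 and 5 over the mean of stages. With edgeR they were 5 in RA from E14.5 to P4, 19 in RA from P4 to P14, 0 between SAN and RA at P4, 0 in each tissue difference of change from E14.5, and 0 in CrePos against CreNeg. Equal upper quartiles gave 21 in RA from P4 to P14 and 0 in CrePos against CreNeg. CrePos against CreNeg also had 0 with no filter, with a pseudocount of 0.25 CPM and with CrePos replicate 2.

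Leaving out each library gave 15 to 39 calls in SAN from E14.5 to P4, 10 to 22 from P4 to P14 and 40 to 42 from E14.5 to P14. In RA the ranges were 1 to 14, 19 to 36 and 42 to 44. Between tissues they were 1 to 1 at E14.5, 0 to 13 at P4, 0 to 0 at P14 and 3 to 18 over the mean. For the tissue difference of change they were 0 to 2 to P4, 0 to 0 from P4 to P14 and 1 to 1 from E14.5 to P14, and in CrePos against CreNeg 0 to 1. The cause of these changes was not tested, beyond the smaller number of libraries.

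Among values for single members and medians, 4958 kept their direction and side of the threshold or, with no test, moved by less than the spread between replicates. Another 355 lost a call, 131 gained one, and 43 without a test moved further. Same-number libraries of SAN and RA correlated between −0.0915 and 0.119, and 3 of 9 matched their own number best. With 3 libraries per group this check cannot exclude that same-number libraries share an animal or day. The main fit used no pairing. A replicate block gave 42 calls in SAN and 43 in RA from E14.5 to P14 and 1 in CrePos against CreNeg (the 4 libraries that share numbers), and changed no count of called members by over 1.5 times. Over all genes it moved those called lower in CrePos from 193 to 522, and those called higher in the tissue difference from P4 to P14 from 26 to 17. Depth limits low genes most: a single read was worth up to 0.215 CPM.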
